A study of Homo sapiens with 3 samples.

Results

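Both siRNAs of this series were directed at the same long non-coding RNA, HOXD-AS1, and the comparison here is of the array from cells given siRNA 1 with the array from cells given siRNA 2. These were 2 of the 3 arrays of the series, 1 array per group, and the array from cells given a control siRNA is shown beside them. Genes were chosen by annotation alone: of 49388 probe sets on the Affymetrix array, the 44988 assigned to exactly 1 gene were used, which covered 18131 genes. A gene was counted as measured when at least 1 of the 3 arrays was above a floor, an intensity of 26.0, the median of all values. This left 11286 measured genes. The cells were LNCaP, an established human prostate cancer line that responds to androgen and makes prostate secretory proteins. In all 3 groups they grew in serum-containing RPMI medium without phenol red and received 75 nM siRNA by lipid transfection, and RNA was taken at 48 h. The control group received a negative control siRNA, and the other groups received HOXD-AS1 siRNA 1 or HOXD-AS1 siRNA 2. The source labels name the cells LNCaP for the control, LNCaP-Bic for siRNA 1 and LNCaP-AI for siRNA 2, while the cell line label is LNCaP for all. A difference between cells of those names and a difference between the siRNAs cannot be told apart. With 1 array per group there was no replicate error, and no difference below was tested.

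An siRNA is a short RNA duplex of which 1 strand is held by an Argonaute protein and guides it to RNAs with a matching sequence. Bases 2 to 8 of that strand, the seed, weigh most in recognition, and siRNAs against a shared target are used side by side because they have that target in common but not their sequence. HOXD-AS1 lies in the HOXD cluster, a group of homeobox genes that pattern the body axis. The siRNA strands are shown because they are the known molecular difference between the arrays. Each is written 5′ to 3′ as labelled, with bases 2 to 8 in capitals. For the HOXD-AS1 siRNAs the reverse complement of the 19 bases before the overhang follows, since the labels do not say which strand is given.
control siRNA: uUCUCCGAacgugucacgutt
siRNA 1, as labelled: gAAAGAAGgaccaaaguaauu
siRNA 1, reverse complement: uUACUUUGguccuucuuuc
siRNA 2, as labelled: gCCCUUUCugaccugcuuauu
siRNA 2, reverse complement: uAAGCAGGucagaaagggc
Aligned from their 5′ ends, the labelled strands of siRNA 1 and siRNA 2 have the same base at 4 of 19 positions. Their longest shared run is 4 bases. GC content over the 19 bases is 36.8% in siRNA 1 and 52.6% in siRNA 2. None of these seeds is the seed of any of 2370 mature human miRNAs in RefSeq. Under an inhibition rate the labels give 1 for the control, 0.23 for siRNA 1 and 0.25 for siRNA 2, and state neither its method nor if it means RNA left or RNA lost, so by that label the siRNAs differ little. HOXD-AS1 is listed today as HAGLR, for which the annotation held 0 probe sets, so its level was not analysed here.

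The siRNA arrays were alike in overall signal. Their median intensities were 25.7 with siRNA 1 and 26.1 with siRNA 2, and their sorted log2 values differed by at most 0.10. The ratio of the 3′ to the 5′ probe set, a sign of how complete the labelled RNA was, was for the actin transcript ACTB 17.7 in the control array, 22.8 with siRNA 1 and 24.0 with siRNA 2, and for GAPDH 1.80, 1.85 and 2.03. The ratio of the 3′ to the middle probe set was for ACTB 4.24 in the control array, 4.47 with siRNA 1 and 5.57 with siRNA 2. For GAPDH it was 1.20, 1.26 and 1.34. The part of these ratios in the differences below was not tested. Both siRNA arrays had the luminal prostate profile of the labelled line, with 15 and 16 of 16 luminal markers with a probe set above the floor and summed intensities of 19241 with siRNA 1 and 18238 with siRNA 2. Summed basal markers were 536 and 439, stromal markers 3101 and 3850, leukocyte markers 912 and 929, and markers of prostate lines that lack the receptor for androgen 990 and 1035 (control 560, 3516, 731 and 1046). Of these, 4 and 5 of 9, 8 and 7 of 19, 3 and 5 of 15, and 4 and 5 of 13 genes were above the floor. The stromal sum was mostly FN1 (1993 with siRNA 1 and 2576 with siRNA 2) and VIM (593 and 735), and VIM was also most of the last sum. The leukocyte sum was mostly LCP1, while PTPRC, the defining leukocyte surface antigen, was far below the floor at 3.14 in each array. In bulk samples such as these, fewer cells of a type and less RNA per cell cannot be told apart.

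Differences are given as log2 of siRNA 1 minus log2 of siRNA 2, so a positive value is higher with siRNA 1, and values below the floor were raised to it. Of the 11286 measured genes, 250 (2.22%) were 2-fold or more apart. Of these, 176 (1.56%) were higher with siRNA 1 and 74 (0.656%) were higher with siRNA 2. Over all measured genes the median difference was -0.02, the SD 0.39 and the quartiles -0.22 and 0.19, with 5161 genes (45.7%) higher with siRNA 1 and 5994 (53.1%) lower. Most genes thus lay slightly toward siRNA 2, while the far differences lay mostly toward siRNA 1. With the mean over all probe sets of a gene in place of its brightest one, 71 and 34 genes were 2-fold apart.

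**Figure D1:**
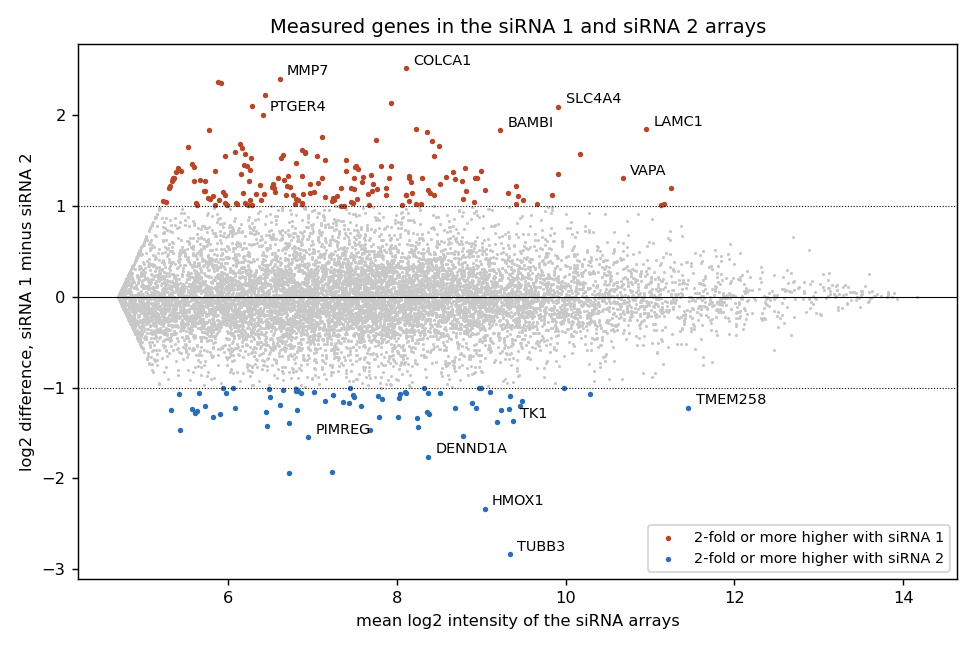
Log2 difference (siRNA 1 minus siRNA 2, vertical axis) against the mean log2 intensity of the siRNA arrays (horizontal axis), 1 point per measured gene, with dotted lines at 2-fold. The 176 red points above and the 74 blue points below are the genes 2-fold or more apart, and the wedge at the left edge comes from the floor.

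The control array shows on which side a gene had moved away from the cells given the control siRNA. Among the 176 genes higher with siRNA 1, the control was within 1.5-fold of siRNA 2 alone for 76 genes, so that siRNA 1 stood apart, and within 1.5-fold of siRNA 1 alone for another 76, so that siRNA 2 stood apart. It was near neither for 21, of which 20 had the control between the siRNAs, and near both for 3. Among the 74 genes higher with siRNA 2, siRNA 1 stood apart for 38 and siRNA 2 for 25, while the control was near neither for 10 and near both for 1. By the stricter rule of a 2-fold distance from both other arrays, siRNA 1 stood apart for 74 genes and siRNA 2 for 55. The separation of the siRNAs was thus not made by either array alone. The lists of mitosis, DNA replication and homologous recombination, described below, hold 1.21% of all measured genes. They held 11 of the 74 genes higher with siRNA 2, of which 8 had siRNA 1 apart, 1 had siRNA 2 apart and 2 had the control near neither, and 0 of the 176 higher with siRNA 1.

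The largest excesses under siRNA 1 were in COLCA1, MMP7 and TNFSF15. COLCA1, a gene named for its link to colorectal cancer risk, read 208 with the control, 661 with siRNA 1 and 115 with siRNA 2, a 5.73-fold gap (difference 2.52), and its further probe set differed by 1.97. MMP7, matrilysin, a secreted protease that cuts matrix and cell surface proteins, read 32.6 in the control array, 225 with siRNA 1 and 42.5 with siRNA 2. Its difference was 2.40, with 2.58 and 2.94 in 2 further probe sets, and siRNA 1 alone stood apart. TNFSF15, a TNF family cytokine, read 17.5 with the control, 134 with siRNA 1 and 21.1 with siRNA 2, at least 5.16-fold higher with siRNA 1 because both other arrays were below the floor, although its further probe set differed by only 0.20. PTGER4, a prostaglandin E2 receptor, read 41.0 in the control array, 170.4 with siRNA 1 and 42.4 with siRNA 2 (difference 2.01), again with siRNA 1 alone apart. CEMIP2, a cell surface hyaluronidase, read 55.8 with the control, 188 with siRNA 1 and 40.2 with siRNA 2, and its further probe sets differed by 1.41 to 2.37. For these 5 genes the siRNA 1 array was at least 3-fold above the control and the siRNA 2 array within 2-fold of it.

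In other genes the siRNA arrays lay on either side of the control or siRNA 2 was the low one. SLC4A4, a sodium bicarbonate cotransporter, read 1027 in the control array, 1991 with siRNA 1 and 467 with siRNA 2, above the control with siRNA 1 and below it with siRNA 2 (difference 2.09, further probe sets 0.77 to 1.57). PROCR, the protein C receptor, had the same arrangement with 77.8 with the control, 161 with siRNA 1 and 37.4 with siRNA 2 (2.10). DEFB132, a beta-defensin, read 216 in the control array, 510.4 with siRNA 1 and 116 with siRNA 2 (2.14), but only 0.78 in its further probe set. GASK1B, a Golgi-associated protein, read 46.9 with the control, 136 with siRNA 1 and 26.6 with siRNA 2 (2.35, further probe sets 1.10 and 2.35). In SELENOI, which makes the membrane lipid phosphatidylethanolamine, siRNA 2 alone was low, with 630.1 in the control array, 567 with siRNA 1 and 157 with siRNA 2 (1.85, further probe set 0.88). LAMC1, the gamma 1 chain of laminin, read 3002 with the control, 3754 with siRNA 1 and 1045 with siRNA 2 (1.85), but its further probe sets ranged from 0.32 to 2.27. NDN, necdin, was likewise low only with siRNA 2, at 297 in the control array, 391 with siRNA 1 and 119 with siRNA 2 (1.72). NHSL1 read 79.4 with the control, 255 with siRNA 1 and 75.1 with siRNA 2 (1.77, further probe set 1.01), with siRNA 1 alone apart. ELMOD2 read 323 in the control array, 614 with siRNA 1 and 175 with siRNA 2 (1.81), but its further probe set gave -0.35, so its probe sets point in opposite directions.

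**Figure D2:**
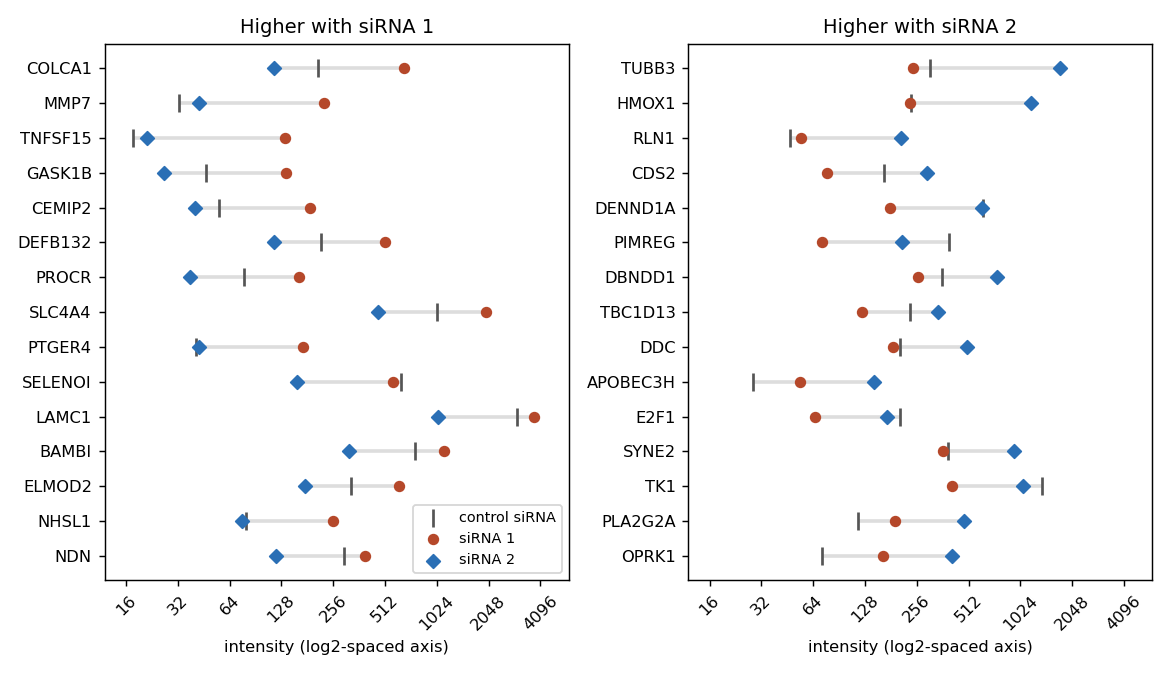
Intensity on a log2-spaced axis in the control (bar), siRNA 1 (circle) and siRNA 2 (diamond) arrays, 1 array each, for the 15 genes with the largest difference in each direction. The bar lies beside the siRNA 2 diamond in MMP7, PTGER4 and NHSL1, beside the siRNA 1 circle in HMOX1, SYNE2 and DDC, and between the siRNAs in COLCA1, SLC4A4 and PROCR.

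The 2 largest excesses under siRNA 2 were in TUBB3 and HMOX1, and in both the siRNA 1 array was within 1.5-fold of the control. TUBB3, a beta-tubulin isotype typical of neurons, read 304 with the control, 242 with siRNA 1 and 1733 with siRNA 2, a 7.16-fold gap (difference -2.84) seen in its only probe set, which carries the suffix x that marks probes able to bind other transcripts. HMOX1, the heme oxygenase that breaks down heme and is induced by oxidants and by heme itself, read 236 in the control array, 234 with siRNA 1 and 1182 with siRNA 2, a 5.04-fold gap (-2.33) with further probe sets at -2.33 and -2.32. RLN1, a relaxin hormone, read 46.7 with the control, 54.0 with siRNA 1 and 207 with siRNA 2 (-1.94). SYNE2, a nuclear envelope protein that links the nucleus to the cytoskeleton, read 389 in the control array, 362 with siRNA 1 and 941 with siRNA 2 (-1.38, further probe sets -1.51 and -1.42). These genes were high only with siRNA 2. APOBEC3H, a cytidine deaminase, was lowest in the control and highest with siRNA 2, with 28.4 with the control, 53.8 with siRNA 1 and 144 with siRNA 2 (-1.42, further probe sets -0.97 and -0.63). DBNDD1 read 359 in the control array, 260.0 with siRNA 1 and 751 with siRNA 2 (-1.53), with further probe sets between -1.18 and -0.49.

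A further set of leading genes under siRNA 2 was low with siRNA 1 instead. PIMREG, a mitotic regulator, read 394 with the control, 72.2 with siRNA 1 and 211 with siRNA 2 (-1.55, further probe set -1.31), below the control with both siRNAs and lowest with siRNA 1. CDS2, which makes the phospholipid precursor CDP-diacylglycerol, read 165 in the control array, 77.0 with siRNA 1 and 293 with siRNA 2 (-1.93), but its further probe set differed by only -0.38. DENND1A, an activator of RAB35, read 625 with the control, 179.6 with siRNA 1 and 611 with siRNA 2 (-1.77), while its further probe sets ranged from -0.22 to 0.62 and thus disagreed. TBC1D13, a RAB GTPase regulator, read 233 in the control array, 123 with siRNA 1 and 339.7 with siRNA 2 (-1.47), with only -0.18 in its further probe set. The values of CDS2, DENND1A and TBC1D13 therefore rest on 1 probe set each. Genes below this rank, chosen after their values were seen, include TMEM258, a subunit of the enzyme that attaches N-glycans, with 4263 with the control, 1837 with siRNA 1 and 4282 with siRNA 2 (-1.22, further probe set -0.03), and the RNA demethylase FTO with 851 in the control array, 418 with siRNA 1 and 983 with siRNA 2 (-1.23, no further probe set).

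How far the gap of a gene held in its other probe sets could be read on the same arrays, a check on the probes and not on the cells. Of the 176 genes higher with siRNA 1, 117 had further measured probe sets. All of these had the same direction in 106 genes, and all were 2-fold or more apart in 29. Of the 74 higher with siRNA 2, 38 had further probe sets, with the same direction throughout in 35 genes and 2-fold throughout in 10. Directions were thus mostly shared, while sizes often shrank: in 65 of the 155 genes of both kinds every further probe set had at least 50% of the difference. For comparison, the median absolute gap between probe sets of 1 gene was 0.14 over 12318 pairs.

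**Figure D3:**
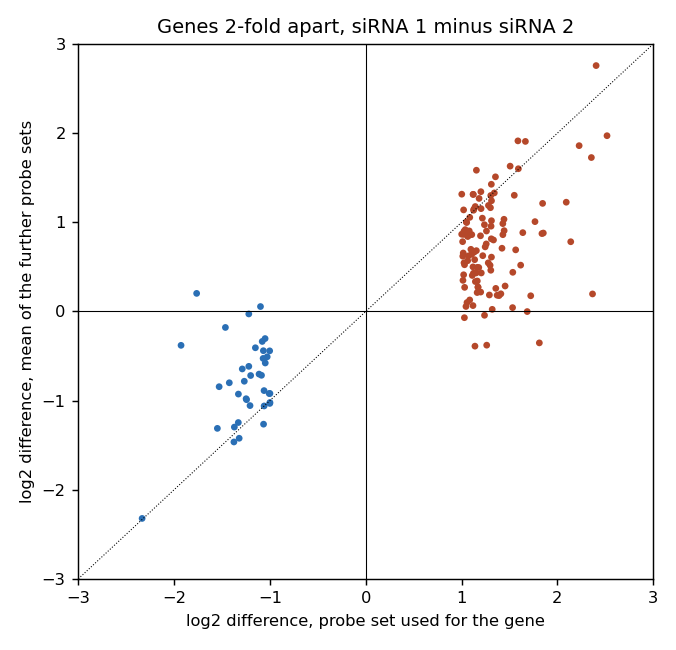
Log2 difference (siRNA 1 minus siRNA 2) in the probe set used for a gene (horizontal axis) against the mean difference of the gene's further probe sets (vertical axis), 1 point for each of the 155 genes 2-fold apart that had any. Most points lie in the quadrants of equal sign, and many lie nearer to 0 than the dotted line of equality.

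Counts in gene lists are to be read beside the shares of all measured genes, 45.7% higher and 53.1% lower with siRNA 1. At 2-fold these shares were 1.56% higher and 0.656% lower with siRNA 1. Of 69 gene lists, mitosis had the lowest median difference, toward lower values with siRNA 1. Mitosis genes build and control the spindle, and most are transcribed late in the cycle. Of 58 measured genes of G2/M and mitosis, 58 were lower with siRNA 1 than with siRNA 2, beside 53.1% of all measured genes. Their median difference was -0.70, beside -0.02 for all genes, and 6 of the 58 were 2-fold apart. In 56 of 58 the order was control highest, siRNA 2 in between and siRNA 1 lowest, an order found in 18.8% of all measured genes. SPC25, a kinetochore subunit, read 199 with the control, 56.3 with siRNA 1 and 135 with siRNA 2 (-1.27). GTSE1, a microtubule-binding protein of G2 and M phase, read 122 in the control array, 32.2 with siRNA 1 and 76.7 with siRNA 2 (-1.25). AURKB, the kinase of the chromosomal passenger complex, read 391 with the control, 123 with siRNA 1 and 259.6 with siRNA 2 (-1.08). In all 3 genes the siRNA 1 value was under 50% of the siRNA 2 value. The kinesin KIF4A read 167 in the control array, 61.4 with siRNA 1 and 132 with siRNA 2 (-1.10), although its further probe set differed by 0.05. DLGAP5, a spindle assembly factor, read 129 with the control, 46.8 with siRNA 1 and 94.2 with siRNA 2 (-1.01, further probe set -0.92), and PRC1, which bundles microtubules of the central spindle, 857 in the control array, 362 with siRNA 1 and 725 with siRNA 2 (just past 2-fold, further probe set -0.44).

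DNA replication and G1/S genes were separated in the same direction by a smaller median, -0.51 over 54 measured genes, of which 51 were lower with siRNA 1, 2 were higher and 4 were 2-fold apart, all 4 of them lower with siRNA 1. The order of control, then siRNA 2, then siRNA 1 was found in 49 of 54. E2F1, a transcription factor of S-phase entry, read 203 with the control, 65.5 with siRNA 1 and 171 with siRNA 2 (-1.39). TK1, thymidine kinase, read 1366 in the control array, 412 with siRNA 1 and 1067 with siRNA 2 (-1.37, further probe set -1.30). POLE2, a subunit of DNA polymerase epsilon, read 129 with the control, 38.3 with siRNA 1 and 93.7 with siRNA 2 (-1.29), and CDC45, part of the replicative helicase, 75.7 in the control array, 29.4 with siRNA 1 and 61.7 with siRNA 2 (-1.07, further probe sets -0.87 and -0.18). In E2F1, TK1 and CDC45 the siRNA 2 array was within 1.5-fold of the control, whereas the siRNA 1 array was more than 2-fold below it. The 5 genes the study named as targets are all members of the mitosis list and are counted in it, with a median of -0.69. AURKA, the centrosomal kinase, read 1501 with the control, 511 with siRNA 1 and 938 with siRNA 2 (-0.88), FOXM1, a transcription factor of G2/M genes, 237 in the control array, 86.4 with siRNA 1 and 139 with siRNA 2 (-0.69, further probe set -0.79), and CDC25C, the phosphatase that activates CDK1, 228 with the control, 102 with siRNA 1 and 152 with siRNA 2 (-0.57, further probe set -0.74). The others, PLK1 and UBE2C, differed by -0.77 and -0.66.

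The promoters of these lists, 250 bases before to 50 after a RefSeq start of each gene (build GRCh38.p14), were searched on both strands. The letters TTTGAA, the core of the cell cycle element of mitotic genes, were in 36 of 48 mitosis promoters (75%), in 9.32% of those of 9322 measured genes with a promoter and in 15.4% of all 27305. The letters CCAAT were in 35 of 48 (72.9%), against 37.3% and 35.7%. Any of the E2F-type letters TTTGGCGC, TTTCCCGC and GGCGGGAA were in 27 of 49 replication promoters (55.1%), against 7.71% and 4.61%. The 3 E2F-type strings overlap partly in sequence. AURKB has no TTTGAA in its window, and TK1 and CDC45 have no E2F-type string in theirs. The windows of AURKB (chr17:8210176-8210475) and CDC45 (chr22:19479670-19479969) lie inside the RefSeq spans of these genes. The bases before the outer start of those spans were therefore not searched for AURKB and CDC45. As examples that do hold the letters, the promoters of SPC25 and PRC1 are shown for the mitosis list and that of E2F1 for the replication list, each read on the strand of its gene, with TTTGAA and CCAAT (or their reverse complements) in capitals in the first pair and the E2F-type element in capitals in E2F1.
SPC25, chr2:168890381-168890680, minus strand: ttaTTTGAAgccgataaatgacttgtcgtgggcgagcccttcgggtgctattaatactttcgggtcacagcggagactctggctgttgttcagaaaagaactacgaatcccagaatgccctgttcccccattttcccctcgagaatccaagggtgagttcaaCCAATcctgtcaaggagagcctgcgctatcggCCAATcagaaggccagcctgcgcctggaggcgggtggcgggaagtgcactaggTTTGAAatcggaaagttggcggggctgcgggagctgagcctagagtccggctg
PRC1, chr15:90994486-90994785, minus strand: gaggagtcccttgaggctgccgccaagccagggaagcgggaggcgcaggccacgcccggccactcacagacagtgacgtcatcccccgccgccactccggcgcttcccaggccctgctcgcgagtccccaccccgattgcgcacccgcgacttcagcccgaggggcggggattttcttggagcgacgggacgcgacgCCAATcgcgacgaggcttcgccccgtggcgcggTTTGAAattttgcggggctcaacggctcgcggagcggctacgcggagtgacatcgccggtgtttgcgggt
E2F1, chr20:33686336-33686635, minus strand: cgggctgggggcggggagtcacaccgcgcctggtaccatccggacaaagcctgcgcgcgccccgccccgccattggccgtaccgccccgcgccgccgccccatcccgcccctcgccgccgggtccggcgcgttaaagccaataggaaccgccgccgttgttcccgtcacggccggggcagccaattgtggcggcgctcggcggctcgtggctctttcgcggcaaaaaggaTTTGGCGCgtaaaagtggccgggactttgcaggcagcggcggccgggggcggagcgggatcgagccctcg
Within the mitosis list the difference between the siRNAs was as large without TTTGAA as with it, with medians of -0.77 and -0.70. Measured genes outside the cell cycle and repair lists had medians of -0.03 with it (829 promoters) and -0.02 without it.

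Genes of homologous recombination and the Fanconi pathway, which mend DNA breaks and crosslinks, had a median of -0.37, with 19 of 25 lower with siRNA 1. FANCG read 108 in the control array, 61.6 with siRNA 1 and 103 with siRNA 2 (-0.74) and the checkpoint kinase CHEK1 253 with the control, 124 with siRNA 1 and 201 with siRNA 2 (-0.70, further probe sets -0.66 to -0.34), with siRNA 2 between the others. BARD1, the partner of BRCA1, differed in kind: it read 335 in the control array, 317 with siRNA 1 and 711 with siRNA 2 (-1.17), close in siRNA 1 and control and high with siRNA 2. Of 19 measured replication-dependent histone genes, 16 were lower with siRNA 1 than with siRNA 2 (median -0.27), although their medians against the control were 0.26 with siRNA 1 and 0.62 with siRNA 2. H2AC8 read 108 with the control, 123 with siRNA 1 and 246 with siRNA 2 (just past 2-fold, further probe set -0.92), and the linker histone H1-2 went the other way with 497 in the control array, 874 with siRNA 1 and 552 with siRNA 2 (0.66). Histone genes share near-identical sequence, so their probe sets may not be specific to 1 gene. They are also very short, and after subtraction of the median of genes of like length the list's median was -0.17.

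**Figure D4:**
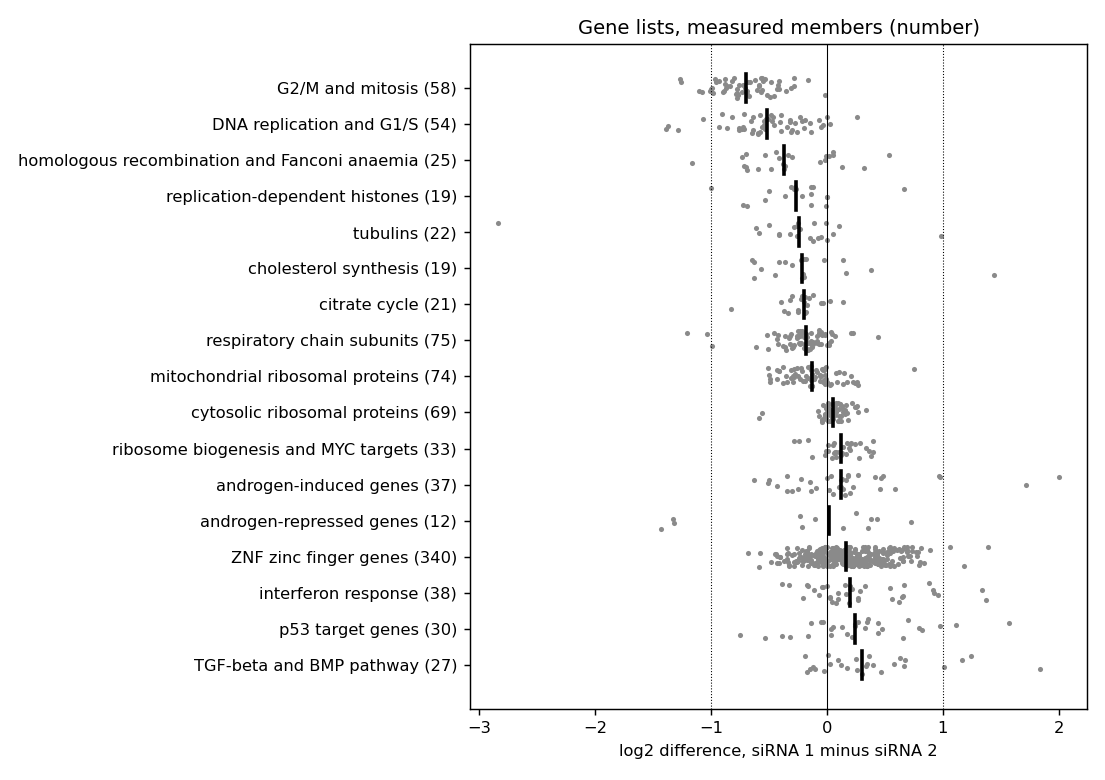
Log2 difference (siRNA 1 minus siRNA 2) of the measured members of 17 gene lists, 1 point per gene and a bar at the list's median, with the number measured in parentheses. The medians run from -0.70 for mitosis to 0.31 for the TGF-beta and BMP pathway, and most lists have members on both sides of 0.

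Several signalling lists lay toward siRNA 1. The TGF-beta and BMP pathway carries signals from secreted ligands through receptor kinases to SMAD transcription factors. Of its 27 measured genes, 21 were higher with siRNA 1, 4 of them 2-fold, with a median of 0.31, beside 45.7% and 1.56% of all genes. Among receptors, ACVR2B read 86.8 with the control, 193 with siRNA 1 and 81.4 with siRNA 2 (1.25, further probe set 0.72) and TGFBR2 64.0 in the control array, 79.4 with siRNA 1 and 35.3 with siRNA 2 (1.17, further probe set 0.27). BAMBI, a decoy receptor that dampens the pathway, had the largest gap with 759.7 with the control, 1127 with siRNA 1 and 316 with siRNA 2 (1.84), and SMAD3, a signal transducer, read 165 in the control array, 288 with siRNA 1 and 143 with siRNA 2 (1.01, further probe set 0.35). The members that were far apart thus include both a transducer and an inhibitor. In 10 of the 27 genes siRNA 1 was above and siRNA 2 below the control, an arrangement found in 14.8% of all measured genes.

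Targets of p53, the transcription factor that responds to DNA damage and other stress, lay the same way, with a median of 0.24. Of 30 measured genes, 22 were higher with siRNA 1 and 2 of them 2-fold, beside 45.7% and 1.56% of all measured genes. TP53INP1, a stress-induced nuclear protein, read 1200.1 with the control, 1980.2 with siRNA 1 and 665 with siRNA 2 (1.57), above the control with siRNA 1 and below it with siRNA 2. TIGAR, which lowers glycolytic flux, read 104 in the control array, 231 with siRNA 1 and 107 with siRNA 2 (1.11, further probe set 0.40). MDM2, the ubiquitin ligase that removes p53, read 171 with the control, 344 with siRNA 1 and 194 with siRNA 2 (0.83, further probe sets 0.47 to 1.08). In TIGAR and MDM2 the siRNA 2 array was close to the control. Against the control the list's medians were 0.50 with siRNA 1 and 0.29 with siRNA 2, so the arrays differed from the control in the same direction and the gap between them is the smaller quantity.

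Interferon response genes had 28 of 38 measured members higher with siRNA 1, 2 of them 2-fold, beside 45.7% and 1.56% of all measured genes. Their median was 0.20. IFIT2, an antiviral protein that binds RNA, read 223 in the control array, 654 with siRNA 1 and 253 with siRNA 2 (1.37), but its further probe set differed by 0.18. HERC5, the ligase for the ubiquitin-like ISG15, read 139 with the control, 187 with siRNA 1 and 74.0 with siRNA 2 (1.34), with siRNA 2 as the low array. IFIT3 read 85.3 in the control array, 113 with siRNA 1 and 59.5 with siRNA 2 (0.93). RSAD2, an antiviral enzyme, read 15.5 with the control, 50.4 with siRNA 1 and 16.5 with siRNA 2. It was at least 1.94-fold higher with siRNA 1 as both other arrays were below the floor, and its further probe set differed by 0.45. In 11 of 38 genes siRNA 1 was above and siRNA 2 below the control, beside 14.8% of all measured genes. Of 12 measured sensors of double-stranded RNA, 6 of which are also in the interferon list, 3 were higher with siRNA 1 and 9 lower, with a median of -0.07. The sensor RIGI read 109 in the control array, 146 with siRNA 1 and 121 with siRNA 2 (0.27), with 0.73 and 0.90 in further probe sets, and the synthetase OAS1 64.0 with the control, 138 with siRNA 1 and 115 with siRNA 2 (0.27, further probe sets -0.16 and 0.54). Both are in the interferon list too, and both are among the 3 sensors higher with siRNA 1. The widest gap among the sensors was -0.34, lower with siRNA 1. Another member, IKBKE, read 27.4 with the control, 33.5 with siRNA 1 and 41.7 with siRNA 2 (-0.32), near the floor.

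Growth factor and immediate early genes were mixed. Of 24 immediate early and MAPK response genes, which cells switch on within minutes of a growth signal, 17 were higher with siRNA 1 (median 0.23) and none reached 2-fold. DUSP4, a phosphatase that ends MAPK signals, read 424 in the control array, 431 with siRNA 1 and 222 with siRNA 2 (0.96) and MYC 1591 with the control, 1566 with siRNA 1 and 913 with siRNA 2 (0.78), both within 1.5-fold in control and siRNA 1 and lower with siRNA 2. KLF4, a transcription factor, was instead high with siRNA 1 alone, at 122 in the control array, 249 with siRNA 1 and 146 with siRNA 2 (0.77, further probe set 0.40). Of 21 receptor tyrosine kinases and growth factors, 12 were higher with siRNA 1, with a median of 0.07 and 3 genes 2-fold apart. These were FGF13 with 49.4 with the control, 107 with siRNA 1 and 36.5 with siRNA 2 (1.55), the EGF receptor ligand HBEGF with 55.7 in the control array, 186 with siRNA 1 and 67.2 with siRNA 2 (1.47) and the IGF-binding protein IGFBP3 with 125 with the control, 246 with siRNA 1 and 107 with siRNA 2 (1.20, further probe set 0.22). All 3 had siRNA 1 as the array apart. Of 17 measured TNF ligands and receptors, 11 were higher with siRNA 1 (median 0.08), led by TNFSF15 and by TNFRSF10D, a decoy receptor of TRAIL, with 251 in the control array, 499 with siRNA 1 and 226 with siRNA 2 (1.14).

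Zinc finger genes with ZNF symbols, mostly DNA-binding repressors, were the largest list. Of 340 measured, 225 were higher with siRNA 1 and 112 lower (66.2% higher, beside 45.7% of all measured genes), with a median of 0.16. Only 3 were 2-fold apart, all higher with siRNA 1, a share below the 2.22% of all measured genes. ZNF721 read 119.8 with the control, 273 with siRNA 1 and 104 with siRNA 2 (1.39), ZNF805 165 in the control array, 271 with siRNA 1 and 119 with siRNA 2 (1.18, further probe set 1.27) and ZNF780A 41.0 with the control, 85.6 with siRNA 1 and 41.0 with siRNA 2 (1.06, further probe set 0.57). In each, siRNA 2 was within 1.5-fold of the control and siRNA 1 was high. These genes share repeated sequence, which limits how specific a probe set is to 1 gene.

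The source labels name different LNCaP variants, so androgen-regulated genes and lineage markers were read side by side. Of 37 measured androgen-induced genes, 24 were higher with siRNA 1 and 12 lower, with a median of 0.12. The 2 genes 2-fold apart were both higher with siRNA 1, beside 1.56% of all measured genes. KLK3, which encodes prostate-specific antigen, read 2602 in the control array, 2329 with siRNA 1 and 1931 with siRNA 2 (0.27), and 6 further probe sets differed by 0.05 to 0.35. PTGER4, described above, and TRPM8, a cold-activated channel, made up the 2-fold genes, TRPM8 with 283 with the control, 619 with siRNA 1 and 188 with siRNA 2 (1.72) but only 0.18 in its further probe set. Of 12 measured androgen-repressed genes, 6 were higher and 6 lower with siRNA 1 (median 0.02), and the 3 that were 2-fold apart were all higher with siRNA 2. DDC, aromatic amino acid decarboxylase, read 204 in the control array, 186 with siRNA 1 and 500.3 with siRNA 2 (-1.43). PLA2G2A, a secreted phospholipase, read 117 with the control, 191 with siRNA 1 and 479.5 with siRNA 2 (-1.33, further probe sets -1.30 and -1.19), and OPRK1, the kappa opioid receptor, 72.4 in the control array, 163 with siRNA 1 and 408 with siRNA 2 (-1.32, further probe sets -1.74 to -0.88). PLA2G2A and OPRK1 were above the control with both siRNAs, and DDC with siRNA 2 only. CAMK2N1, an inhibitor of CaM kinase II, went the other way with 695 with the control, 3089.7 with siRNA 1 and 1870.3 with siRNA 2 (0.72, further probe set 0.50).

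Luminal identity genes were split, 9 higher and 7 lower with siRNA 1 of 16, with a median of 0.04. The widest gap was in ACP3, prostatic acid phosphatase, with 190.5 in the control array, 445 with siRNA 1 and 664 with siRNA 2 (-0.58, further probe sets -0.76 to -0.53), above the control with both siRNAs. Neuroendocrine and neuronal markers had 8 measured genes of 24 with a probe set, with a median of -0.11. TUBB3 was the only one 2-fold apart, and the next widest gap among them was -0.21 in STMN2. Summed over the list, intensities were 2454 in the control array, 3662 with siRNA 1 and 5183 with siRNA 2. SYT4, a synaptotagmin that is part of that sum and is named here because of its values, was equal in the siRNA arrays at 1491 with the control, 2819 with siRNA 1 and 2829 with siRNA 2. Synaptophysin, SYP, a defining neuroendocrine marker, read 55.8 in the control array, 52.4 with siRNA 1 and 59.8 with siRNA 2 (-0.19). Among 22 measured tubulins, 18 were lower with siRNA 1 (median -0.24). The alpha-tubulin TUBA1A went against them with 174 with the control, 907 with siRNA 1 and 458 with siRNA 2 (0.99, further probe set 0.90), and TUBB4B, an abundant beta-tubulin, read 6402 in the control array, 4617 with siRNA 1 and 6939 with siRNA 2 (-0.59, further probe set -0.60). Tubulin genes are close paralogs, so probe sets may share signal.

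HMOX1 likewise stood nearly alone in its list. NRF2 is the transcription factor that switches on antioxidant enzymes, and of 20 measured target genes 14 were lower with siRNA 1, with a median of -0.06. AKR1C2, an aldo-keto reductase with near-identical paralogs, was the other one 2-fold apart, with 45.2 with the control, 35.1 with siRNA 1 and 72.9 with siRNA 2 (-1.06). The glutathione synthesis subunit GCLM read 537 in the control array, 509 with siRNA 1 and 679 with siRNA 2 (-0.42), but 0.03 in its further probe set. PGD of the pentose phosphate pathway read 205 with the control, 123 with siRNA 1 and 168 with siRNA 2 (-0.45, further probe set -0.45), low with siRNA 1 and not high with siRNA 2.

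Lipid synthesis and mitochondrial lists lay toward siRNA 2 by small medians, while hypoxia and glycolysis genes did not, with 20 of 32 higher with siRNA 1 and a median of 0.08. Of 19 measured cholesterol synthesis genes, 15 were lower with siRNA 1 (median -0.22), among them mevalonate kinase, MVK, with 80.5 in the control array, 63.3 with siRNA 1 and 99.2 with siRNA 2 (-0.65) and ACAT2 with 587 with the control, 524 with siRNA 1 and 808 with siRNA 2 (-0.62, further probe sets -0.60 and -0.55). The only member 2-fold apart went against the rest: MSMO1, a sterol oxidase, read 311 in the control array, 371 with siRNA 1 and 137 with siRNA 2 (1.44). Of 20 fatty acid and lipid synthesis genes, 14 were lower with siRNA 1 (median -0.27, but 0.12 over the 3 with plain probe sets). SREBF1, the transcription factor of lipid synthesis, read 645 with the control, 383 with siRNA 1 and 793 with siRNA 2 (-1.05, further probe sets -0.88 and -0.28), and the desaturase FADS1 416 in the control array, 231 with siRNA 1 and 384 with siRNA 2 (-0.73, further probe sets -0.72 and -0.60). The siRNA 1 array was below the control in both genes.

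In mitochondria, 19 of 21 citrate cycle genes (median -0.20), 66 of 75 respiratory chain subunits (median -0.18) and 59 of 74 mitochondrial ribosomal proteins (median -0.13) were lower with siRNA 1. NDUFS7, a core subunit of complex I, read 1262 with the control, 461 with siRNA 1 and 1066 with siRNA 2 (-1.21, further probe sets -1.08 and -1.03). ATP5MC1, a subunit of the ATP synthase ring, read 893 in the control array, 286 with siRNA 1 and 568 with siRNA 2 (-0.99), and SDHD, a membrane anchor of complex II, 665 with the control, 277 with siRNA 1 and 489.9 with siRNA 2 (-0.82, further probe sets -0.64 to -0.39). In these 3 genes siRNA 1 was the low array. COX7B2, a subunit of complex IV, read 105 in the control array, 79.4 with siRNA 1 and 163 with siRNA 2 (-1.03), with siRNA 2 as the high array. These genes are short as a rule, with a median span of 9.24 kb for the respiratory chain and 8.64 kb for mitochondrial ribosomal proteins. Against genes of like length the medians were -0.12 and -0.04. Cytosolic ribosomal proteins, also short at 5.13 kb, had 52 of 69 higher with siRNA 1 and a median of 0.05, and ribosome biogenesis genes 27 of 33 and 0.12.

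Solute carriers, membrane transporters of ions and nutrients, had 130 of 205 measured genes lower with siRNA 1 (median -0.11), and SLC4A4 had the largest gap. In all 5 of the 205 were 2-fold apart, 3 of them toward siRNA 1, a share near the 2.22% of all measured genes. Zinc transporters were on both sides. SLC39A1, a zinc importer, read 514 with the control, 212 with siRNA 1 and 509.6 with siRNA 2 (-1.27, further probe sets -1.33 to -0.23), low with siRNA 1 alone, and SLC39A14, an importer of the same family, read 529 in the control array, 562 with siRNA 1 and 238 with siRNA 2 (1.24), low with siRNA 2 alone. The amino acid transporter SLC7A2 read 311 with the control, 297 with siRNA 1 and 124 with siRNA 2 (1.26, further probe sets 0.33 and 1.47), and SLC37A4, the glucose-6-phosphate transporter, 753 in the control array, 389 with siRNA 1 and 924 with siRNA 2 (-1.25, further probe sets -1.17 to -0.64).

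Among genes tied to the target itself or to RNA interference, none was 2-fold apart. The labels place the siRNA target points, 588 and 1290, on the coding sequence of WDR5, a subunit of H3K4 methyltransferase complexes, although both siRNAs carry the name of HOXD-AS1, and what the positions refer to is unclear. WDR5 read 444.5 with the control, 351.1 with siRNA 1 and 407 with siRNA 2 (-0.21, further probe set 0.02). Of 21 measured genes of its complexes, 8 were higher and 13 lower with siRNA 1 (median -0.05), the widest gap being ASH2L with 246 with the control, 185 with siRNA 1 and 259.7 with siRNA 2 (-0.49, further probe set -0.40). Of the HOXD genes and their neighbours 5 were measured (median -0.18, but 0.0075 over 3 genes with the mean of probe sets), of which HOXD10 read 44.2 in the control array, 39.7 with siRNA 1 and 49.0 with siRNA 2 (-0.31). The other HOX clusters had 9 measured genes, 7 of them higher with siRNA 1 (median 0.22), led by HOXC13 with 144 with the control, 206 with siRNA 1 and 115 with siRNA 2 (0.84). AGO2, the Argonaute that cuts target RNA, read 85.8 in the control array, 68.3 with siRNA 1 and 77.2 with siRNA 2 (-0.18). The 18 measured genes of the RNA interference machinery had a median of 0.09, with AGO4 widest apart at 49.4 with the control, 80.4 with siRNA 1 and 46.2 with siRNA 2 (0.80) and DICER1 at 303 in the control array, 239 with siRNA 1 and 173 with siRNA 2 (0.47, further probe sets 0.53 to 1.26).

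The difference between the siRNAs varied with the genomic length of genes. Measured genes were put in 5 groups of 2256 or 2257 by their RefSeq span, with median spans of 4.80, 14.1, 28.8, 56.5 and 149 kb. From the shortest to the longest group the median difference was -0.10, -0.05, -0.03, 0.00 and 0.09. Against the control the medians went from -0.08 to 0.15 with siRNA 1 and from 0.00 to 0.04 with siRNA 2, so the order with length was steeper with siRNA 1. Genes 2-fold higher with siRNA 1 numbered 17, 15, 34, 47 and 63 over the groups, while those 2-fold higher with siRNA 2 numbered 17, 14, 12, 15 and 16. Subtracting the median of its length group left the mitosis median at -0.67 and the replication median at -0.50. The part of RNA quality in the relation with length was not tested.

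**Figure D5:**
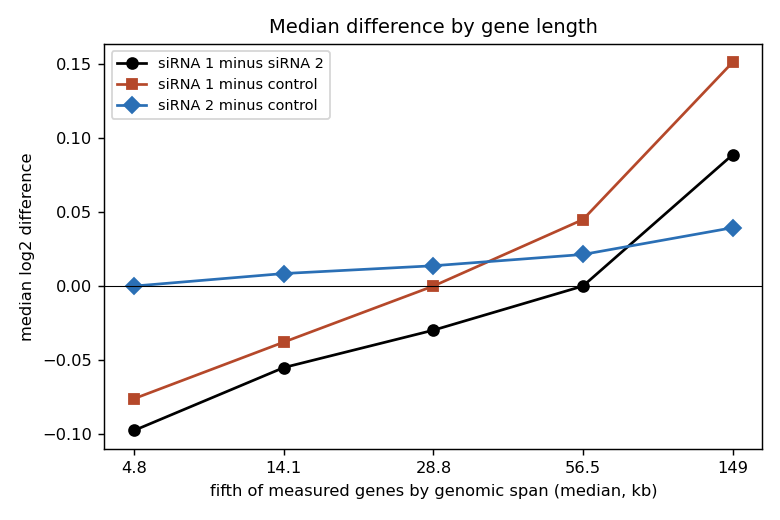
Median log2 difference of measured genes in 5 groups of gene length, from siRNA 1 minus siRNA 2 (black), siRNA 1 minus control (red) and siRNA 2 minus control (blue). The black line goes from -0.10 in the shortest genes to 0.09 in the longest, and the blue line stays between 0.00 and 0.04.

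By chromosome, medians ranged from -0.12 on chromosome 22 to 0.09 on chromosome 13. On these chromosomes 31.3% and 64.9% of measured genes were higher with siRNA 1, beside 45.7% of all measured genes. A difference in chromosome copies between the cells of the siRNA arrays was not tested. Chromosomes 3 and 4, with 620 and 393 measured genes, each held 18 genes 2-fold higher with siRNA 1 and 2 higher with siRNA 2. Chromosome 22 held 0 and 5 among 300 measured genes, and chromosome 16 held 3 and 9 among 538. Over all measured genes these shares were 1.56% and 0.656%. Chromosomes 19 and 16, both with low medians, had short genes, with median spans of 15.6 kb and 18.9 kb, against 52.7 kb on 13. Chromosome 22, with the lowest median, did not follow this order with length. Its median span was 24.5 kb, longer than the 20.8 kb of chromosome 11, where the median difference was -0.05. It was also near the 26.3 kb of chromosome X, where the median difference was 0.001. Neighbouring measured genes were both 2-fold apart in the same direction in 8 pairs, all of them higher with siRNA 1. That direction also held more 2-fold genes, 1.56% of all measured genes against 0.656%. The number of pairs that these shares alone would give was not worked out. The longest run of such neighbours, singled out after its values were seen, was MECOM, ACTRT3 and MYNN on chromosome 3. MYNN, a zinc finger protein, read 110.4 with the control, 642 with siRNA 1 and 202 with siRNA 2 (1.67, further probe sets 1.79 and 2.02). MECOM, a transcription factor of blood stem cells, read 26.1 in the control array, 103 with siRNA 1 and 28.8 with siRNA 2 (1.84, further probe sets 0.76 and 0.98), and ACTRT3, an actin-related protein, 19.4 with the control, 79.0 with siRNA 1 and 28.7 with siRNA 2 (1.46). The next measured gene on one side, SEC62, differed by 0.08, but its 7 further probe sets ranged from -0.04 to 0.91. On the other side GOLIM4 read 30.0 with siRNA 1 and was below the floor with siRNA 2, so its difference is only a bound. TUBB3 had no such company: its measured neighbours on chromosome 16, MC1R and DEF8, differed by -0.20 and -0.23, although DBNDD1, 3 measured genes further on, is among the leading genes.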

How the data were processed

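The authors deposited a linear intensity for each probe set and array. The software was GCOS 1.4, per the submitters' processing notes. How background, summary values and scaling were handled is not given in the sources used here. If the arrays were scaled to each other, a change shared by most genes would not show. Symbols were those of the platform annotation and matched RefSeq by gene identifier for 44961 of 44988 probe sets, with 0 symbols updated. A further 1831 probe sets with several genes and 2569 not listed were left out.

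Groups came from the siRNA and title labels. Values under the floor were raised to it, log2 was taken, and the probe set brightest on average over the 3 arrays stood for its gene. Genes were counted at 2-fold, with no test, since each group held 1 array, whose number limits the precision of every value. Named genes were the 15 with the largest difference in each direction whose higher siRNA array was at least 4 times the floor, list members 2-fold apart, the 4 list members farthest apart, KLK3, WDR5, AGO2 and the study's target genes. A gene that the rule also names is not reported here. The members and the 69 lists were chosen with earlier results of these data known. Gene spans, promoters and miRNAs came from RefSeq tables. Alternatives changed the threshold, the floor, the normalization (quantile), the pseudocount (32), the probe sets and the genes measured. The counting was tested on simulated data. Python 3.11.15 with pandas 2.3.3 and numpy 2.4.6 was used.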

Additional observations from a re-analysis of the deposited data

How the results depend on the processing

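Quantile normalization, a floor at the 25th percentile, no floor and counting only genes above the floor in an siRNA array left the counts of 176 and 74 within 1.5 times. The counts higher with siRNA 1 and with siRNA 2 were 77 and 43 with a floor at the 75th percentile, 89 and 30 with a pseudocount of 32 in place of the floor, 71 and 34 with the mean of all probe sets, 80 and 21 with plain probe sets only (3410 genes measured), 736 and 550 at 1.5-fold and 25 and 5 at 3-fold. Genes in which an array stood apart from both others numbered 576 for siRNA 1 and 357 for siRNA 2 at 1.5-fold, and 10 and 4 at 3-fold. The mitosis median was -0.49 with the 75th percentile floor, -0.58 with the pseudocount and -0.57 with the mean of probe sets, and the replication median was -0.32, -0.37, -0.41 and, with plain probe sets, -0.40. Some list medians changed sign: with the 75th percentile floor leukocyte markers (0.058, 1 gene) and MHC class I presentation (0.0072), Notch and Hedgehog genes without a floor (-0.0100) and with the pseudocount (-0.0023), and HOXD genes with the mean of probe sets (0.0075) and with plain probe sets (0.16, 1 gene). With plain probe sets stromal markers (0.15), fatty acid synthesis (0.12), mitochondrial carriers (0.11) and ELMOD2 (-0.35) changed sign too. The cause was not tested beyond the fewer genes or probe sets those settings use. Over all these settings, list medians moved by less than 0.1 in 531 instances and by more in 79, besides those 9 sign changes among medians of 0.1 or more. Differences of named genes moved by less than 0.14, the median gap between probe sets of a gene, in 1974 instances and by more in 310, besides ELMOD2. Subtracting the median of each gene length group, an alternative chosen after seeing the data, left every list median within 0.1 and both counts within 1.5 times. No paired analysis was possible because each group holds 1 array. A dim probe set near the floor gives only a bound, and an siRNA array was at the floor in 12 of the 176 genes higher with siRNA 1 and 2 of the 74 higher with siRNA 2.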

Other observations

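Some lists outside the account above had a median near that of all genes and single members far apart. Of 47 measured lysosome and autophagy genes, 27 were lower with siRNA 1 (median -0.08), a share near the 53.1% of all measured genes. TPP1, a lysosomal peptidase, read 726 with the control, 479 with siRNA 1 and 1066 with siRNA 2 (difference -1.15, further probe sets -0.92 to 0.02), and PSAP, the precursor of the saposins, 2925 in the control array, 2445 with siRNA 1 and 4104 with siRNA 2 (-0.75, further probe sets -0.69 to -0.53), both with siRNA 2 above and siRNA 1 below the control. FOXO-type growth factor targets were an exception, with 11 of 17 measured genes higher with siRNA 1, beside 45.7% of all measured genes. Their median was 0.18, beside -0.02 for all genes. Among them, YPEL2 read 133 with the control, 401 with siRNA 1 and 147 with siRNA 2 (1.44, further probe set 1.03). SESN3, a stress-induced inhibitor of mTORC1, read 35.5 in the control array, 43.4 with siRNA 1 and 87.1 with siRNA 2 (-1.01). Each was high with a different siRNA. In the PI3K, AKT and mTOR list, with a median of -0.03, the receptor gene IGF1R read 126 with the control, 166 with siRNA 1 and 82.9 with siRNA 2 (1.00, further probe sets 0.14 to 0.99) and the regulatory subunit gene PIK3R3 788 in the control array, 1042 with siRNA 1 and 1781 with siRNA 2 (-0.77, further probe sets -0.24). Circadian genes, with a median of -0.03, had PER3 at 77.3 with the control, 64.7 with siRNA 1 and 148 with siRNA 2 (-1.19) and the nuclear receptor RORA at 64.3 in the control array, 79.1 with siRNA 1 and 37.3 with siRNA 2 (1.08, further probe set 1.05).

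Of 17 measured BCL2 family genes, 10 were higher with siRNA 1 (median 0.02, near that of all genes), and BCL2L12 was the only one 2-fold apart, with 1372 with the control, 441 with siRNA 1 and 945 with siRNA 2 (-1.10). BIRC5, survivin, a mitotic inhibitor of apoptosis, read 867 in the control array, 359 with siRNA 1 and 643 with siRNA 2 (-0.84), with further probe sets from -1.17 to -0.09. Of 26 measured chaperones, 20 were higher with siRNA 1 (median 0.09), led by DNAJB4 with 60.4 with the control, 78.2 with siRNA 1 and 35.0 with siRNA 2 (1.16, further probe set 0.21). Of 19 measured Notch and Hedgehog genes, 12 were higher with siRNA 1 (median 0.23, but -0.0100 over 27 genes without a floor), led by the Notch ligand JAG1 with 61.6 in the control array, 147 with siRNA 1 and 77.9 with siRNA 2 (0.91). Keratins and keratin-associated proteins, most of them dim on these arrays, had 34 of 39 measured genes lower with siRNA 1 (median -0.15, or -0.07 against genes of like length). Chosen after their values were seen, the transcription factor SOX9 read 71.0 with the control, 220.3 with siRNA 1 and 104 with siRNA 2 (1.08, further probe set 0.13) and the Hippo effector YAP1 752 in the control array, 1042 with siRNA 1 and 499 with siRNA 2 (1.06, further probe sets 0.16 to 1.46).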
